A study of Mus musculus with 24 samples.

Results

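Cell adhesion genes of the cadherin-catenin complex were described in mouse mammary cells with and without Snai2. The genes are 5 cadherins (Cdh1, Cdh2, Cdh3, Cdh11 and Cdh13) and 3 catenins (Ctnna1, Ctnnb1 and Ctnnd1), chosen by name: every array probe whose symbol is that of a listed gene was taken. They are 8 of the 18138 symbols of the array and hold 16 of its 25697 probes. All 16 passed the filter on low values, which asks for detection on at least 3 of the 24 arrays.

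Each sample, mammary gland RNA of female mice, was measured on its own Illumina bead array. The control genotype is SNAI2+/+ (wild type, WT), and the other is SNAI2 null, homozygous for a LacZ allele in place of the working gene, in every cell of the animal rather than in 1 cell type. For each genotype there were luminal, basal and stromal cells, sorted by the surface proteins CD49f and Epcam, and unsorted cells of the gland. Each of the 8 groups held 3 arrays; the sources used here give neither age nor strain, nor how many animals stand behind a sample. Since no label says that replicates are different animals, the p-values speak of the spread between these samples alone, and that spread may be technical.

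Classical cadherins are transmembrane proteins that join neighbouring cells through their outer domains, each type mostly to its own kind. Beta-catenin (Ctnnb1) binds the inner tail and alpha-catenin (Ctnna1) links it to actin, while p120-catenin (Ctnnd1) binds the tail near the membrane and keeps the cadherin at the surface. In the mammary gland E-cadherin (Cdh1) is the cadherin of epithelial cells and P-cadherin (Cdh3) that of the basal, myoepithelial layer, while cadherin-11 is typical of fibroblasts. Snai2 (Slug) is a zinc finger factor known as a repressor of E-cadherin, and it is made in the basal layer. Cdh13 encodes T-cadherin, which is held in the membrane by a lipid anchor and lacks the tail that catenins bind, so the word classical does not strictly cover it.

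Medians of the raw intensity of the arrays lay between 93.6 and 144, and between 12634 and 15825 probes were detected per array (detection p below 0.05 against negative control probes). Levels below are log2 normalized intensities, and the undetected values of these genes lay between 4.33 and 4.92, where a level is only an upper bound. Levels are compared for 1 probe between groups, never between probes. The arrays also fell on opposite sides of the third principal component, which carried 9.79% of the variance and whose source no label gives. In WT it set replicate 3 of each population apart from replicates 1 and 2. The positive side held 8 WT arrays, those numbered 1 and 2, and 3 null arrays, the first replicate of each sort, and the negative side the other 4 WT and 9 null arrays. Values within each side are given below for part of the differences. A side that holds 1 array of a group takes the spread from the other groups. Snai2 and Epcam themselves were not analysed here, so neither the genotype nor the sort was checked on its own gene.

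The sorted populations carried their own markers. The summed intensity of 6 basal markers (Krt5, Krt14, Krt17, Trp63, Acta2, Myh11) was 18300 to 20400 in WT basal cells and 1330 to 3190 in WT stromal cells. That of 6 luminal markers was 10300 to 12200 in WT luminal and 2570 to 3200 in WT basal cells, and that of 6 fibroblast markers 14900 to 18700 in WT stromal and 1890 to 2790 in WT basal cells. Keratins of both epithelial layers and all 6 fibroblast markers were detected on every array, so each sort held some RNA of the other populations or some expression of their markers. In bulk samples like these, fewer cells of a type and less RNA per cell cannot be told apart.

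In both genotypes Cdh1 was higher in luminal and in basal cells than in stromal cells, Cdh3 was higher in basal cells than in the other sorted populations, and Cdh11 was higher in stromal cells than in both epithelial ones. Cdh1 did not pass between luminal and basal cells in either genotype. No cadherin or catenin probe passed the test between SNAI2 null and WT in any population. Changes are given as log2 differences with the standard error (SE) of limma's fit, and a probe passed at a Benjamini-Hochberg adjusted p below 0.05 over all 17878 probes tested. In WT cells, 5 of the 16 probes passed between basal and luminal cells, all higher in basal cells, beside 13.6% of all probes tested (6.84% higher, 6.78% lower). Between basal and stromal cells 10 passed, 7 higher and 3 lower, beside 16.5% of all probes (7.79% higher, 8.69% lower). Between luminal and stromal cells 7 passed, 3 higher and 4 lower, beside 22.6% (11.2% higher, 11.4% lower). Cdh3 probes 3 and 4 are among those higher in both basal comparisons. They passed the filter on low values only through basal cells, so the filter set the direction of their calls. Probes of 1 gene are not separate members. By gene, of 8, there were 2 higher in basal than in luminal cells. There were 4 higher and 1 lower between basal and stromal cells, and 3 higher and 2 lower between luminal and stromal cells. A gene was counted if any of its probes passed. Ctnnb1 was counted on 1 of 3 probes in both stromal comparisons, and Cdh13 on 1 of 2 in both luminal ones. The shares above are of probes, and no share of all genes counted in this way is given.

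**Figure D1:**
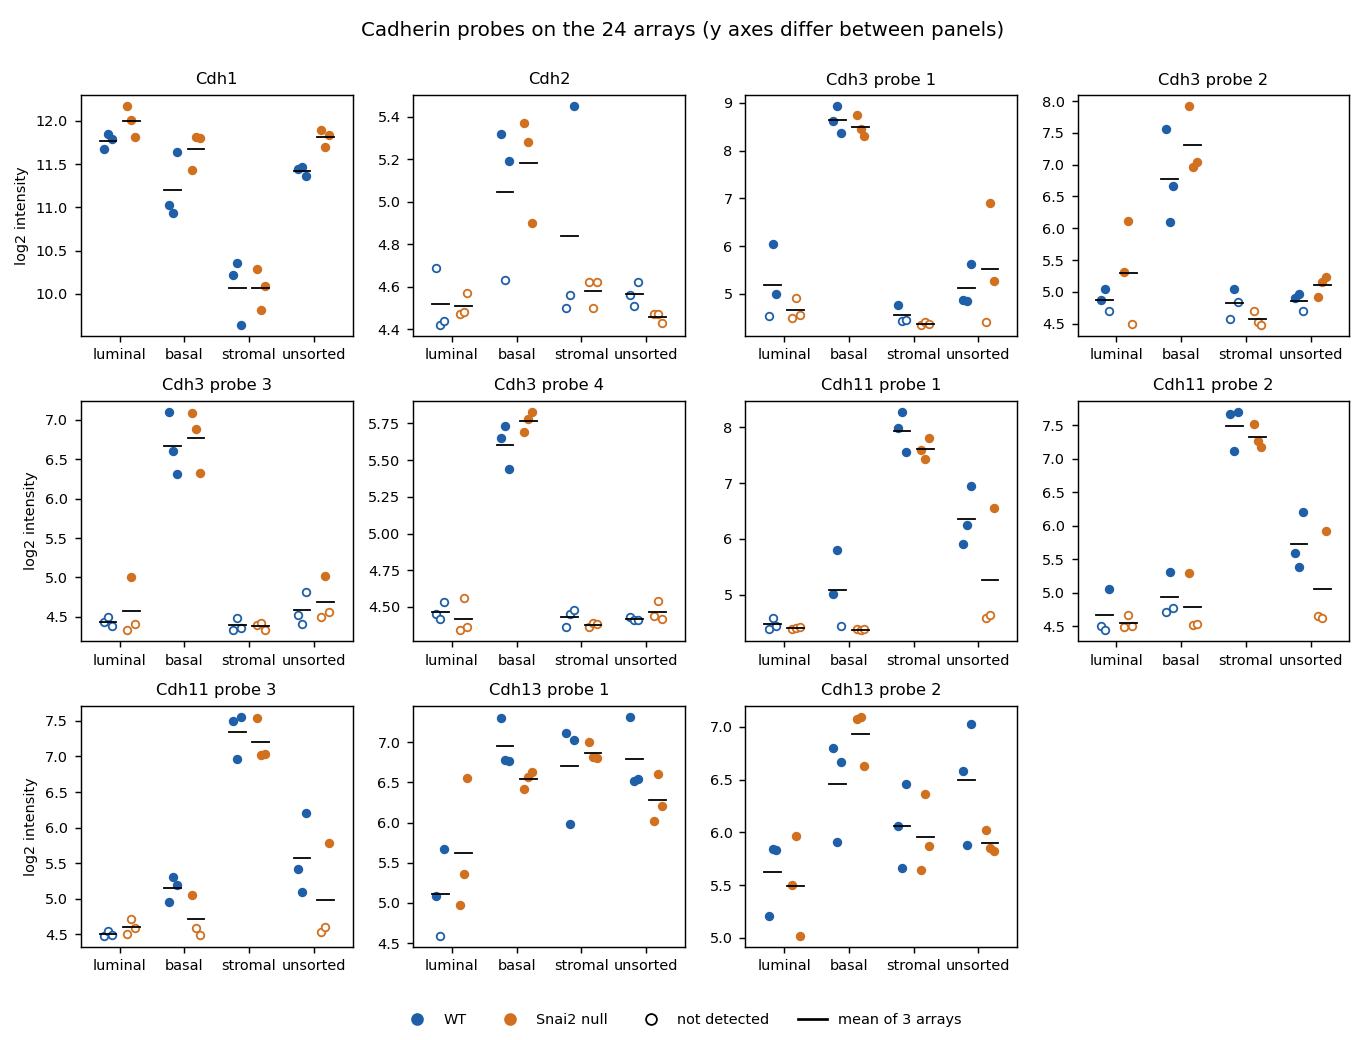
Log2 normalized intensity of the cadherin probes on each array, with groups along the horizontal axis; filled points are arrays on which the probe was detected, open points arrays on which it was not, and bars are group means. Cdh1 stood high in all groups and lowest in stromal cells, with Cdh3 high in the 6 basal arrays and Cdh11 in the 6 stromal arrays.

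Cdh1 encodes E-cadherin and was detected on all 24 arrays by its probe (ILMN_2628629). Its log2 level in WT luminal cells was 11.68, 11.85 and 11.79 in replicates 1, 2 and 3, in WT basal cells 11.03, 10.93 and 11.64, and in WT stromal cells 10.22, 10.35 and 9.64. The 3 sorted WT populations did not overlap, though basal replicate 3 came close to the lowest luminal array. In SNAI2 null cells the values were 12.17, 12.01 and 11.81 (luminal), 11.43, 11.81 and 11.80 (basal) and 10.29, 9.81 and 10.09 (stromal). There the stromal arrays again stood below all others, whereas null basal replicates 2 and 3 lay at about the level of the lowest null luminal array.

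The order of mean Cdh1 levels in WT was luminal (11.77 ± 0.09, SD, n = 3), unsorted (11.42 ± 0.06), basal (11.20 ± 0.39) and stromal (10.07 ± 0.38). The same order held in SNAI2 null, at 12 ± 0.18, 11.81 ± 0.10, 11.68 ± 0.22 and 10.06 ± 0.24. Unsorted WT arrays (11.36 to 11.47) lay inside the range of WT basal cells, and unsorted null arrays (11.70 to 11.90) overlapped both null epithelial populations, so those neighbours were not apart beyond their spread. Cdh1 was higher in WT luminal than in WT stromal cells by 1.70 ± 0.21 (SE; limma adjusted p = 5.66e-06), and this held within both sides of the third component, at 2.15 on the negative and 1.48 on the positive side. In WT basal cells it was 1.13 ± 0.21 higher than in stromal cells (limma adjusted p = 0.0006). That difference was 2.00 on the negative side (adjusted p = 0.01) and 0.69 on the positive side (adjusted p = 0.0638), and missed the threshold when only the 6 arrays compared were fitted (adjusted p = 0.0616).

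Between the epithelial layers the Cdh1 difference did not pass. WT basal minus luminal was -0.57 ± 0.21 (limma adjusted p = 0.085), with every basal array below every luminal one. Without WT basal replicate 3 the value was -0.79 (adjusted p = 0.0208), and with array weights the adjusted p was 0.0127. The difference also passed without background subtraction, at -0.56 (0.0418). On the positive side of the third component it was -0.78 (0.0466) and on the negative side, which holds replicate 3, -0.15 (0.907). In SNAI2 null the difference was -0.32 (adjusted p = 0.458). Against stromal cells, null luminal cells were higher by 1.94 ± 0.21 (limma adjusted p = 9.03e-07) and null basal cells by 1.62 ± 0.21 (adjusted p = 7.32e-06).

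Cdh3, which encodes P-cadherin, had its highest group means in basal cells of both genotypes on all 4 probes. On probe 1 (ILMN_3156246) the log2 level was 8.63, 8.93 and 8.37 in WT basal and 8.74, 8.46 and 8.30 in SNAI2 null basal replicates 1, 2 and 3. In WT luminal cells it was 4.54 (not detected), 6.04 and 5, in WT stromal cells 4.77, 4.42 and 4.46 with the last pair not detected. The 6 basal arrays lay apart from all 18 others, of which null unsorted replicate 2 came nearest at 6.90. Null luminal arrays had 4.50, 4.92 and 4.56 and null stromal arrays 4.35 to 4.4, none of them detected. Unsorted cells had 4.86, 4.85 and 5.63 in WT and 4.41 (not detected), 6.90 and 5.26 in SNAI2 null. Apart from basal cells, the groups overlapped one another or lay at the detection limit, so their order is not settled.

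The WT basal-to-luminal differences of the 4 Cdh3 probes were 3.45 ± 0.43 (limma adjusted p = 1.23e-05), 1.90 ± 0.35 (0.000672), 2.23 ± 0.23 (2.15e-06) and 1.14 ± 0.14 (1.1e-05). The latter pair was not detected in WT luminal cells, which makes those differences bounds of at least 3.52-fold and at least 1.69-fold. Such a bound sets the mean of the bright group against the lowest signal among detected probes on each dim array, or the dim probe's own signal if that is higher. Probe 4 was detected on the 6 basal arrays alone. Probe 3 was detected on 8 arrays, the 6 basal ones, null luminal replicate 2 and null unsorted replicate 2. Both therefore passed the filter only through basal cells, where they are high. Probes 3 and 4 lie close to the detection limit, where differences on the log2 scale are compressed.

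Against WT stromal cells the Cdh3 differences were 4.10 ± 0.43 on probe 1 (limma adjusted p = 9.12e-07), 1.96 on probe 2 (0.00034), at least 3.41-fold on probe 3 and at least 1.64-fold on probe 4. Probes 1 and 2 were each detected on 1 of 3 WT stromal arrays and on 2 of 3 WT luminal arrays, so their fitted differences rest in part on levels that are upper bounds. The same 4 probes passed in SNAI2 null. There null basal cells stood above null luminal cells by 3.84 on probe 1 (limma adjusted p = 4.5e-06), a bound of at least 12.2-fold, and by 2.00 on probe 2 (0.000497), 2.18 on probe 3 and at least 1.84-fold on probe 4. Against null stromal cells the bounds were at least 12.1-fold, 5.3-fold, 3.63-fold and 1.82-fold for probes 1 to 4. Within the sides of the third component, basal minus luminal on probe 1 was 3.49 (positive, limma adjusted p = 0.00379) and 3.38 (negative, 1 array per group, 0.0995) in WT, and 4.24 and 3.64 in SNAI2 null.

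Cdh2 encodes N-cadherin, a cadherin of mesenchymal and neural cells, and its probe was detected on 6 of the 24 arrays. Of these, 5 were basal: WT basal replicates 1 and 3 at 5.32 and 5.19, and all 3 null basal replicates at 5.37, 5.28 and 4.90. The other was WT stromal replicate 3 at 5.45. All luminal and unsorted arrays were below detection, from 4.42 to 4.69.

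Basal minus luminal was 0.53 ± 0.22 for Cdh2 in WT (limma adjusted p = 0.134) and 0.68 ± 0.22 in SNAI2 null (0.0581), neither past the threshold. It passed in WT without WT basal replicate 2, at 0.74 (adjusted p = 0.0471), and in SNAI2 null without null basal replicate 3 (0.0436). Null basal minus stromal was 0.61 (adjusted p = 0.0609), and it passed without null basal replicate 3 (0.0433) and with the side of the third component as a term (0.0476). That term gave 0.0431, and array weights 0.0369, between null basal and luminal cells. With 5 of 6 basal arrays detected and 1 of the other 18, the signal is at the edge of what this array measures. Without the basal arrays the probe would not have passed the filter.

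Cdh11 encodes cadherin-11, and its 3 probes were high in stromal cells. On probe 1 (ILMN_2751663) the log2 level was 7.99, 8.28 and 7.56 in WT stromal and 7.60, 7.44 and 7.81 in SNAI2 null stromal cells. In WT basal cells it was 5.01, 5.80 and 4.44, the last not detected, and the null basal (4.36 to 4.38), WT luminal (4.39 to 4.59) and null luminal arrays (4.38 to 4.42) were all below detection. The 6 stromal arrays stood above all 18 others on this probe. Unsorted WT cells lay between, at 5.90, 6.25 and 6.94.

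Cdh11 was lower in WT luminal than in WT stromal cells by at least 8.51-fold on probe 1 (limma adjusted p = 2.18e-06), by 2.83 on the log2 scale on probe 2 (1.77e-06) and by at least 5.58-fold on probe 3 (1.11e-06). WT basal minus stromal was -2.86 ± 0.40, -2.56 ± 0.32 and -2.18 ± 0.30 on the 3 probes (limma adjusted p = 2.14e-05, 5.68e-06 and 2.07e-05). In SNAI2 null the luminal bounds were at least 6.64-fold, 5.41-fold and 4.97-fold lower than stromal cells. Null basal cells were at least 6.34-fold lower on probe 1, and their differences were -2.54 and -2.49 on probes 2 and 3. On probe 1, WT luminal minus stromal was -3.64 on the positive and -3.13 on the negative side of the third component. Between basal and luminal cells no Cdh11 probe passed in either genotype.

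Cdh13, the lipid-anchored T-cadherin, was lowest in luminal cells. On probe 1 (ILMN_2592321) WT luminal cells had 5.09, 4.59 (not detected) and 5.67, WT basal cells 7.30, 6.78 and 6.76, and WT stromal cells 7.11, 5.98 and 7.03. Luminal arrays lay below all basal and stromal arrays of WT. In SNAI2 null the luminal values were 4.97, 5.36 and 6.55, and replicate 3 came within the range of null basal cells, at 6.42, 6.57 and 6.63.

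Probe 1 of Cdh13 was higher in WT basal than in WT luminal cells by 1.83 ± 0.36 (limma adjusted p = 0.00134; 2.20 on the positive and 1.09 on the negative side) and lower in WT luminal than in stromal cells, at -1.59 ± 0.36 (0.0026). Probe 2 (ILMN_2659503) gave 0.83 ± 0.32 for basal minus luminal (adjusted p = 0.0933) and -0.44 for luminal minus stromal (0.381), so the probes share a direction but not the call. With the replicate block, which groups WT samples by replicate number, probe 2 passed between basal and luminal cells (0.0327). In SNAI2 null it was probe 2 that passed between basal and luminal cells, by 1.43 ± 0.32 (limma adjusted p = 0.00441), and probe 1 did not, at 0.92 (0.131). Probe 1 passed there without null luminal replicate 3, at 1.38 (adjusted p = 0.0159).

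Against stromal cells, probe 1 of Cdh13 was lower in null luminal cells, at -1.25 (limma adjusted p = 0.0153), a call lost without null luminal replicate 1 (0.101) or 2 (0.0649) and under median scaling in place of quantile normalization (0.0585). Probe 2 was higher in null basal than in null stromal cells by 0.97 (0.0342). That call was lost without null basal replicate 1 (0.0947) or 2 (0.112), or null stromal replicate 1 (0.133) or 3 (0.0875), and under median scaling (0.129). Unsorted cells had 7.31, 6.52 and 6.54 on probe 1 in WT and 6.02, 6.61 and 6.20 in SNAI2 null. The WT values overlapped WT basal and stromal cells, and the null values overlapped null basal cells and lay below all null stromal arrays.

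**Figure D2:**
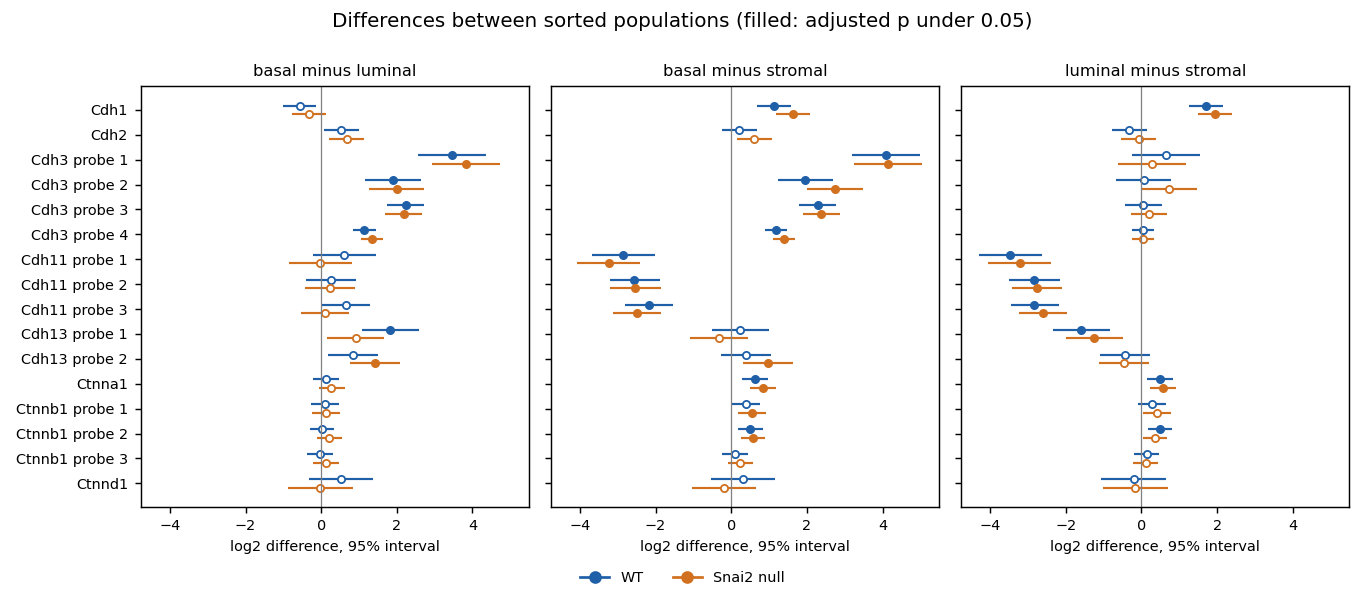
Log2 differences of the 16 probes between sorted populations in WT and in SNAI2 null, with 95% confidence intervals from limma's fit; filled points passed at an adjusted p below 0.05. Cdh3 probes stand to the basal side, and Cdh11 probes to the stromal side; all catenin intervals hold 0 between basal and luminal cells, and those of Ctnna1 lie above 0 against stromal cells.

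The catenins are shared by all cadherins with a binding tail. None of the 5 catenin probes passed between basal and luminal cells in either genotype. In WT the differences were 0.13 for Ctnna1, 0.11, 0.03 and -0.04 for the 3 probes of Ctnnb1, and 0.52 for Ctnnd1. Their levels in stromal cells were lower on some probes.

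Ctnna1, alpha-catenin, had log2 levels of 11, 10.88 and 11.11 in WT luminal, 11.10, 10.91 and 11.37 in WT basal and 10.45, 10.68 and 10.39 in WT stromal cells. The stromal arrays were the lowest, and the epithelial populations overlapped. WT basal minus stromal was 0.62 ± 0.16 (limma adjusted p = 0.0109) and WT luminal minus stromal 0.49 ± 0.16 (0.0354). The basal difference was lost without WT basal replicate 3 (0.50, adjusted p = 0.0729) and when only the arrays compared were fitted (0.146). Under median scaling both WT calls were lost, at 0.39 for basal minus stromal (adjusted p = 0.348) and an adjusted p of 0.413 for luminal minus stromal. Both were also lost on the positive side of the third component, at 0.44 (limma adjusted p = 0.236) and 0.38 (0.277). On the negative side, with 1 array per group, the values were 0.99 and 0.72.

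In SNAI2 null, Ctnna1 was 11, 11.40 and 11.41 in basal cells and 10.36, 10.43 and 10.48 in stromal cells. These did not overlap, with a difference of 0.85 ± 0.16 (limma adjusted p = 0.000606). Null luminal minus stromal was 0.57 (adjusted p = 0.014). Unsorted arrays, given below, lay within the epithelial range in SNAI2 null and under it in WT. The lowest WT unsorted array stood at 10.68, as did WT stromal replicate 2. The luminal call in WT was lost without WT luminal replicate 1 (0.0857) or 3 (0.115), or stromal replicate 1 (0.0924) or 3 (0.111).

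Ctnnb1, beta-catenin, is also the transducer of Wnt signals, and its 3 probes lay between 10.60 and 11.51 on all 24 arrays. Probe 2 (ILMN_2696575) had 11.21, 11.17 and 11.26 in WT basal, 11.27, 11.26 and 11.03 in WT luminal and 10.82, 10.62 and 10.69 in WT stromal cells. Stromal arrays were below both epithelial groups, by 0.50 ± 0.15 for basal (limma adjusted p = 0.0275) and 0.48 ± 0.15 for luminal cells (0.0289). The basal call was lost without any 1 of the 3 WT basal arrays (adjusted p = 0.0639, 0.0543 and 0.0824) or without WT stromal replicate 2 (0.0826) or 3 (0.0579), and under median scaling (0.25, adjusted p = 0.529). The luminal call was lost without luminal replicate 1 (0.103) or 2 (0.0895), or stromal replicate 2 (0.0797) or 3 (0.0646). On the positive side of the third component neither passed, at 0.47 for basal (limma adjusted p = 0.185) and 0.55 for luminal cells (0.109). On the negative side, with 1 array per group, the values were 0.57 and 0.33.

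On the other Ctnnb1 probes no WT difference passed. In SNAI2 null, basal cells were higher than stromal cells on probe 1 by 0.54 (limma adjusted p = 0.0342) and on probe 2 by 0.58 (0.00925). The probe 1 call was lost without null basal replicate 2 (0.116) or 3 (0.0999), or null stromal replicate 1 (0.0689) or 2 (0.166). On the negative side of the third component neither probe passed, at 0.63 on probe 1 (limma adjusted p = 0.106) and 0.56 on probe 2 (0.114). Under median scaling the Ctnnb1 calls in SNAI2 null were lost as well (0.22 and 0.102), as was that of Ctnna1 between null luminal and stromal cells (0.105), and of the catenin calls that of Ctnna1 between null basal and stromal cells remained. Ctnnd1, p120-catenin, ranged from 5.08 to 6.83 over the 24 arrays, with group means from 5.77 ± 0.37 (SD, n = 3, WT luminal) to 6.32 ± 0.73 (null stromal) and overlapping groups. No comparison passed on its probe (ILMN_2673589).

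**Figure D3:**
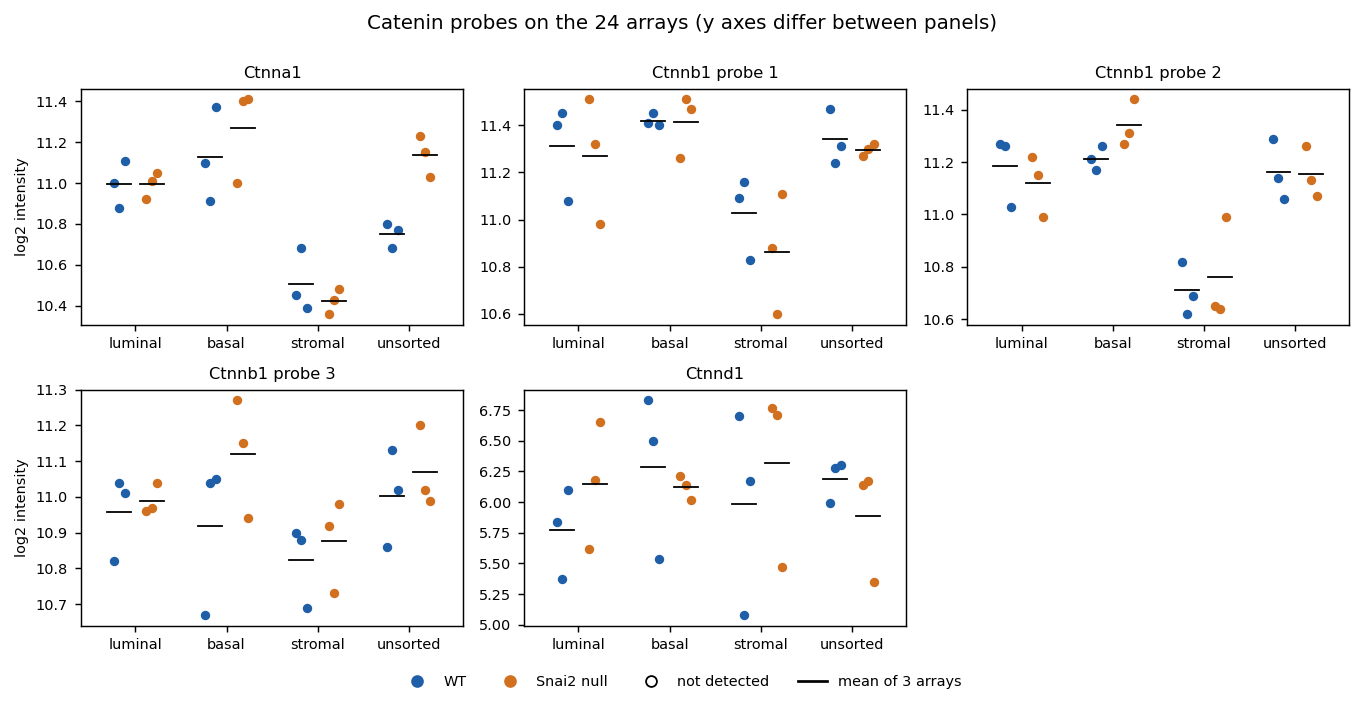
Log2 normalized intensity of the catenin probes on each array by group, with points and bars as for the cadherins. Stromal group means are the lowest on Ctnna1 and on Ctnnb1 probe 2, though single stromal arrays reach those of other groups. The 3 Ctnnb1 probes stay between 10.60 and 11.51 on all arrays.

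In SNAI2 null, 5 of the 16 probes passed between basal and luminal cells, all higher in basal cells, beside 10.1% of all probes tested (5.63% higher, 4.51% lower). Between basal and stromal cells 12 passed, 9 higher and 3 lower in basal cells, beside 20.1% (9.74% higher, 10.3% lower). Between luminal and stromal cells 6 passed, 2 higher and 4 lower in luminal cells, beside 23.9% (11.8% higher, 12.1% lower). Both basal counts again include Cdh3 probes 3 and 4, which passed the filter on low values only through basal cells. By gene, of 8 and counted as in WT, there were 2 higher (basal and luminal), 5 higher and 1 lower (basal and stromal), and 2 higher and 2 lower (luminal and stromal). Cdh13 was counted on 1 of its 2 probes each time, and Ctnnb1 on 2 of its 3. The shares are again of probes, not genes. The median change of the 16 probes, some of them of the same gene, was 0.60 for null basal minus stromal, beside 0.07 over all probes.

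The design asks whether loss of Snai2, a known repressor of E-cadherin, changes the choice of cadherin in each population. No member probe passed between SNAI2 null and WT: 0 of 16 in luminal, basal, stromal and unsorted cells with limma, beside 0.00559%, 0.666%, 0.0224% and 0.257% of all probes tested. At an unadjusted p below 0.05 there were 0, 1, 0 and 3 probes. They were Cdh1 in basal cells, and Cdh11 probes 1 and 2 and Ctnna1 in unsorted cells. The share of all probes at that unadjusted p is not given, so these counts cannot be set against it. The test of whether the effect of genotype differed between basal and luminal cells, or between basal and stromal cells, also gave 0 of 16 probes, beside 0.151% and 0.145% of all probes, and 0 at an unadjusted p below 0.05. In basal cells the median change was 0.11 over the 16 probes and 0 over all probes tested.

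**Figure D4:**
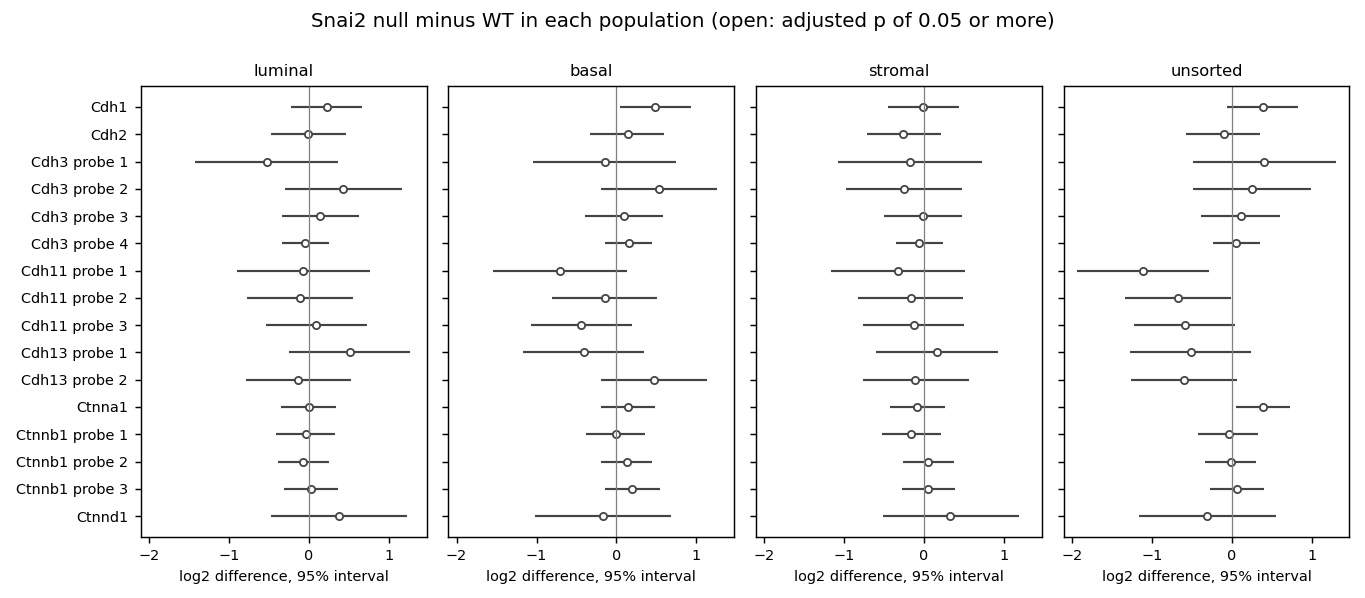
Log2 difference SNAI2 null minus WT of the 16 probes in the 4 populations, with 95% confidence intervals from limma's fit. No probe passed at an adjusted p below 0.05, and intervals of Cdh1 in basal cells and of Ctnna1 and Cdh11 probes 1 and 2 in unsorted cells lie to 1 side of 0.

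Cdh1 in basal cells was 0.48 ± 0.21 higher in SNAI2 null by estimate, with a 95% confidence interval of 0.04 to 0.93 (limma unadjusted p = 0.0348, adjusted p = 0.592). The arrays given above overlapped: WT basal replicate 3 at 11.64 was above null basal replicate 1 at 11.43. Leaving out 1 array at a time gave 0.35 to 0.70. With array weights the value was 0.66 (adjusted p = 0.0228). The overlapping arrays just named, WT basal replicate 3 and null basal replicate 1, had the lowest basal weights, 0.59 and 0.51. Null basal replicates 2 and 3 had 2.07 and 2.63. That setting also called 889 of all probes, in place of 119. On the positive and negative sides of the third component the Cdh1 difference was 0.45 and 0.17.

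In the same basal arrays, the mean log2 level of the luminal markers lay between 7.13 and 7.57 in WT and between 7.45 and 8.25 in SNAI2 null basal cells, ranges that overlap. The summed intensity of all 6 was 2570 to 3200 in WT and 2610 to 4900 in SNAI2 null, with Cldn4 detected on 1 of 3 WT and 3 of 3 null arrays and Prom1 on none of either. The part of luminal RNA in the Cdh1 value was not tested. In luminal cells the Cdh1 difference was 0.23 (95% confidence interval -0.22 to 0.67) and in stromal cells -0.01 (-0.45 to 0.44). In unsorted cells it was 0.39 (-0.06 to 0.83, limma adjusted p = 0.526). Unsorted arrays had 11.44, 11.47 and 11.36 in WT and 11.90, 11.70 and 11.84 in SNAI2 null. The luminal markers summed to 6000 to 8080 in the unsorted WT and 10400 to 12200 in the unsorted null arrays. Their part in the unsorted Cdh1 difference was not tested.

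Basal Cdh3 did not pass on any probe, with differences of -0.15, 0.53, 0.09 and 0.16 for SNAI2 null minus WT. The interval of probe 1, -1.04 to 0.75, leaves room for changes of either sign. Cdh2 in basal cells differed by 0.14 (-0.33 to 0.60). The Cdh13 probes went opposite ways in basal cells, -0.41 on probe 1 and 0.47 on probe 2, neither past the threshold.

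Cdh11 in basal cells was detected on probe 1 in 2 of 3 WT arrays and in 0 of 3 null arrays, a bound of at least 1.09-fold lower that did not pass (fitted value -0.71, limma adjusted p = 0.785). Probe 2 was detected on 1 of 3 arrays in each genotype and differed by -0.15, and probe 3 differed by -0.44, on 3 of 3 WT and 1 of 3 null arrays. On the negative side of the third component, where WT basal replicate 3 lies, the 3 probes gave -0.07, -0.25 and -0.66, and on the positive side -1.02, 0.29 and -0.07. The 6 fibroblast markers summed to 2370, 2790 and 1890 in WT basal replicates 1, 2 and 3 and to 1050 to 1450 in SNAI2 null basal cells. The 12 endothelial markers summed to 3110, 2090 and 679 in the WT and 483 to 611 in the null basal arrays. All 6 fibroblast markers were detected on every basal array. The part of these cells in the basal Cdh11 signal was not tested.

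Unsorted cells gave the largest estimate among the null effects on Cdh11. Probe 1 had 5.90, 6.25 and 6.94 in WT and 4.59, 4.63 and 6.55 in SNAI2 null, with null replicates 1 and 2 below detection and replicate 3 inside the WT range. The difference was -1.11 ± 0.40 (95% confidence interval -1.94 to -0.28, limma adjusted p = 0.283), and -0.67 (0.445) and -0.59 (0.49) on probes 2 and 3. Without null unsorted replicate 3 it was -1.76 on probe 1 (adjusted p = 0.00295) and -1.10 on probe 2 (0.0405). Over all alternatives probe 1 ranged from -1.76 to -0.45, with adjusted p from 0.00295 to 0.796.

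The fibroblast markers followed the same arrays. Their sum was 8720, 9240 and 13000 in WT unsorted replicates 1, 2 and 3, and 4190, 4330 and 11700 in SNAI2 null ones. The 6 macrophage markers were lower in the same pair of null arrays, at 378 and 450 against 1210 in replicate 3 and 1740 to 2610 in WT, and the luminal markers were higher in null than in WT unsorted cells, at 10400 to 12200 against 6000 to 8080. Other lists did not follow these arrays. The 6 pericyte markers summed to 1110, 1220 and 746 in null replicates 1, 2 and 3, and to 1660 to 2190 in WT. The 12 endothelial markers summed to 2500, 2880 and 2930 in those null arrays, and to 6220, 5890 and 2610 in WT replicates 1, 2 and 3. Every null unsorted array lies on the negative side of the third component, with WT unsorted replicate 3, while WT replicates 1 and 2 lie on the positive side. Genotype and side are thus partly confounded in all unsorted comparisons. Whether the share of stromal cells accounts for the Cdh11 value was not tested. In sorted stromal cells, where Cdh11 is high, it did not pass on any probe.

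Ctnna1 in unsorted cells differed by 0.39 ± 0.16 (95% confidence interval 0.05 to 0.73, limma adjusted p = 0.378). The arrays had 10.80, 10.68 and 10.77 in WT and 11.23, 11.15 and 11.03 in SNAI2 null. The luminal marker sums given above were higher in the same null arrays, and their part in the Ctnna1 difference was not tested. Median scaling moved the median of all probes in this comparison to 0.16 from 0.02, and in the others by less than 0.1. The 3 Ctnnb1 probes differed by -0.01, 0.13 and 0.20 in basal cells, each with an interval that holds 0.

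**Figure D5:**
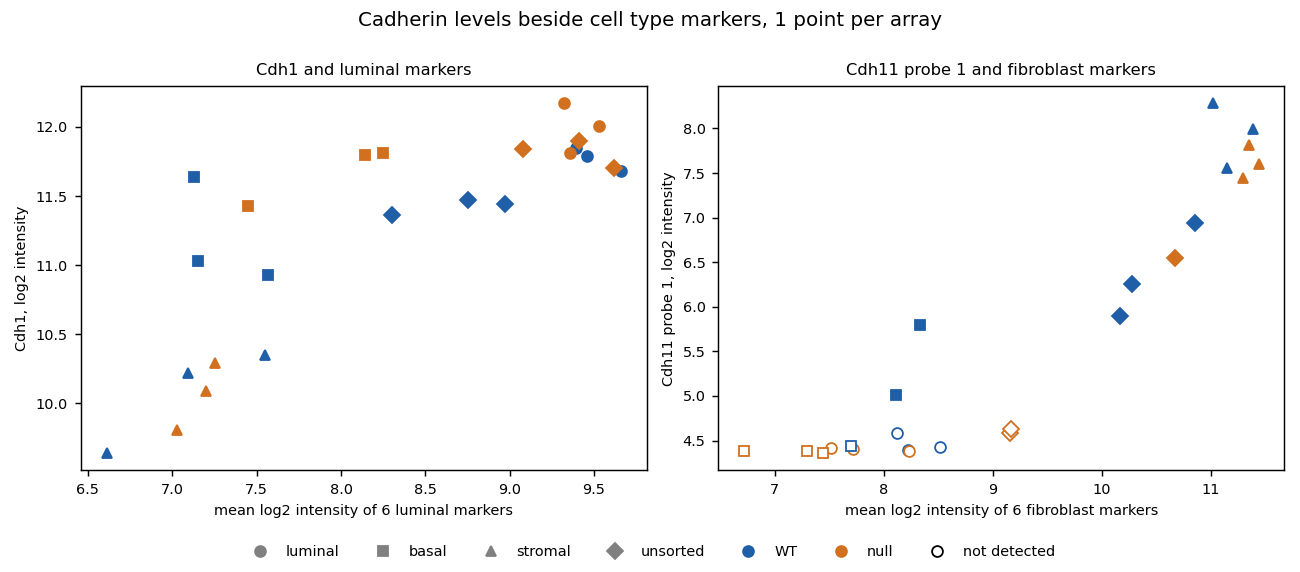
Log2 level of Cdh1 against the mean log2 intensity of the 6 luminal markers, and of Cdh11 probe 1 against that of the 6 fibroblast markers, 1 point per array; shape gives the population, colour the genotype, and open points are undetected levels. Null unsorted replicates 1 and 2 are low on Cdh11 (4.59 and 4.63) with a fibroblast mean near 9.16, and replicate 3 is high on both (6.55 and 10.67).

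Other genes of the junction were taken from 5 lists. Of 14 other classical cadherins, 4 were detected often enough to be tested (Cdh5, Cdh6, Cdh19, Cdh24). Cdh19, a cadherin known from Schwann cells and their precursors, was the 1 gene of all 5 lists to pass between the genotypes. It was lower in SNAI2 null than in WT basal cells by at least 2.62-fold (-1.88 ± 0.32, limma adjusted p = 0.00352). In WT it was at least 2.80-fold higher in basal than in luminal cells and 1.47 higher than in stromal cells (adjusted p = 0.00202).

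Of other markers from a Schwann cell list, Gfra3 was detected on 3 of 3 WT and 1 of 3 null basal arrays, Mbp on all 6 and S100b on none. Their part in the Cdh19 difference was not tested. The difference of the null effect between basal and luminal cells was -1.83 for Cdh19 (limma adjusted p = 0.222), and between basal and stromal cells it was -1.83 (0.194). No call on the other 3 cadherins of the list was made in any comparison.

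Catenin relatives gave 4 tested genes of 8, and 0 passed between genotypes in any population. Jup (plakoglobin, which takes the place of beta-catenin on the cadherin tail and also sits in desmosomes) was higher in both epithelial populations of WT than in stromal cells, by at least 2.40-fold in basal and at least 3.79-fold in luminal cells. Ctnnd2, a relative of p120-catenin, was higher in WT basal than in stromal cells by 3.09 and than in luminal cells by 1.76 (limma adjusted p = 0.000935). Ctnnal1, an alpha-catenin-like gene, was 2.33 higher in basal than in luminal (8.25e-05) and 2.38 higher than in stromal cells. Thus 2, 3 and 2 of the 4 passed between basal and luminal, basal and stromal, and luminal and stromal WT cells, all upward (6.84%, 7.79% and 11.2% of all probes), with medians of 1.12, 2.01 and 0.70 beside 0, 0.04 and 0.07 over all probes.

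Among 14 tested nectins and actin linkers of 16 listed, 4 were higher and 2 lower in WT basal than in luminal cells, beside 6.84% higher and 6.78% lower of all probes tested. Nectin3 (2.21), Nectin1 (1.44) and the actin crosslinker Actn1 (1.35) were higher, and Ssx2ip, which binds afadin at the junction, was lower (-1.51). Against stromal cells 6 were higher in basal cells and 0 lower (7.79% and 8.69% of all probes), led by Actn1 at 2.74 and Plekha7, which binds p120-catenin, at 1.79. Between luminal and stromal cells 6 were higher and 2 lower (11.2% and 11.4% of all probes), with Nectin2 at 1.77 and Nectin3 at -2.22. The medians of the list were 0.43, 0.47 and 0.18 beside 0, 0.04 and 0.07 over all probes, and 0 passed between genotypes.

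Of 10 enzymes of cadherin turnover 9 were tested. Adam10, which sheds the outer part of E-cadherin, was lower in WT basal than in luminal cells (-1.58), the 1 gene of the list to pass there, and higher in luminal than in stromal cells (2.11). Ptprf, a receptor phosphatase found at junctions, was higher than in stromal cells by 1.48 in basal and 2.30 in luminal cells. Src, a tyrosine kinase that acts on junction proteins, was 1.72 higher in basal than in stromal cells. In all, 3 were higher and 0 lower between basal and stromal cells, and 3 higher and 1 (Fer) lower between luminal and stromal cells, with 0 between genotypes. Over all probes 7.79% were higher and 8.69% lower between basal and stromal cells and 11.2% and 11.4% between luminal and stromal cells, and 13.6% passed between basal and luminal cells, where 1 of the 9 did. The medians of the list were 0.03 (basal minus luminal), 0.43 (basal minus stromal) and 0.40 (luminal minus stromal), beside 0, 0.04 and 0.07.

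Most genes listed as other repressors of E-cadherin were higher in stromal cells. Their part in the Cdh1 level was not tested. The list includes the symbols Tcf3 and Tcf4, whose identity is uncertain, as given below. Of 7 tested, 5 were lower in WT basal than in stromal cells and 6 lower in luminal than in stromal cells, beside 8.69% and 11.4% of all probes tested. Zeb1 had log2 differences of -3.65 and -3.53 in those comparisons, and Zeb2 of -2.97 and -3.42. Twist1 was at least 6.13-fold lower in basal and at least 6.39-fold lower in luminal cells. The list's medians were -1.97 and -2.41 beside 0.04 and 0.07 over all probes.

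Between WT basal and luminal cells 2 genes of that list passed, named Tcf3 (1.44) and Tcf4 (1.07) in the array file. These symbols were also used for Tcf7l1 and Tcf7l2, so which gene is measured is uncertain. None of the 7 passed between SNAI2 null and WT in any population with limma. In basal cells the list's median change was -0.42, with Zeb2 at -1.40 ± 0.42 (adjusted p = 0.195) and Zeb1 at -0.51 (0.968). The same SNAI2 null basal arrays had the lower fibroblast sums given above, and their part was not tested.

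As a description, the genes whose mean over the 8 groups ran closest to each member were named by Pearson r, with the brightest probe of each gene. For Cdh1 they were Jup (0.993), Metap1 (0.993) and Dld (0.992), and for Cdh3 Ankrd10 (0.99), LOC100047012 (0.988) and Socs5 (0.988). For Cdh11 they were Steap4 (0.997), Meis2 (0.996) and Nid2 (0.995), a basement membrane gene, and for Cdh13 Cavin1 (0.965), Rbm7 (0.958) and Rgs10 (0.957). Cdh2 ran closest to Smarcd3 (0.99), LOC100044363 (0.98) and Nkd1 (0.978), on levels near the detection limit. The catenins ran closest to Rfc3, Prkcd and Ap1s3 (0.987, 0.987 and 0.986, Ctnna1), to Tfap2c, Cds1 and Sdc3 (0.985, 0.982 and 0.977, Ctnnb1), and to Rasa1, LOC100046781 and Tcp10a (0.964, 0.949 and 0.931, Ctnnd1). All 8 points of each correlation share the same arrays, and the best of many genes is high by selection.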

How the data were processed

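Probe intensity for 25697 probes on each of the 24 arrays was deposited on a linear scale, not normalized, per the file headers. The deposited table also gives each intensity a detection p-value, per the file headers, in steps of 1 over 798. A second deposited table of intensities differed from a quantile normalization of the first by at most 0.0124 (log2), with array medians of 111.79 to 112.03, and served as an alternative. The software before export and the genome build: not given in the sources used here.

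Background was removed with normexp from the detection p-values, an offset of 16 added, and arrays quantile normalized and log2 transformed with neqc of limma 3.58.1 (R 4.3.3). Probes with detection p below 0.05 on at least 3 arrays were kept (17878). All 24 arrays entered lmFit with 1 mean for each group, followed by eBayes, two-sided, per probe, with Benjamini-Hochberg adjustment within each comparison. The steps were tested on simulated data. An exact permutation test of 3 arrays against 3 cannot give a p below 0.1, so it was not used. Precision is limited by the number of arrays, with a median SE of 0.301 for null minus WT in basal cells (log2). No 2 arrays correlated above 0.979.

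Groups came from the labels. Members and gene lists were chosen with earlier results of these data known. Lists covered other classical cadherins, catenin relatives, nectins and actin linkers, turnover enzymes and repressors of E-cadherin; from each, at most the 4 genes with the largest change past the threshold were named per comparison, and beside each member the 3 genes with the highest r over group means. Older symbols were updated through a RefSeq gene table (GRCm38.p6): 20733 probes were current, 3872 updated and 1092 unmatched. Same-numbered samples deviated together in the 3 WT population comparisons (correlations 0.18 to 0.41). Correlations of differently numbered samples were not taken, and the third component sets WT replicate 3 apart in every population. Whether the numbers pair samples was therefore not tested, and no label gives a source for such a pairing. Alternatives were another background, scaling, table, filter, sample set, array weights, 1 probe per gene, the replicate block, the sides of the third component and leaving out each array. Part of the Schwann cell marker list is not reported here.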

Additional observations from a re-analysis of the deposited data

How the results depend on the processing

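Of 45 member changes past the threshold, 23 kept their call in every alternative and 35 in every alternative that kept arrays of both sides of the third component; 0 reversed. Of 147 not past it, 135 were never past. With array weights 1 member probe passed between SNAI2 null and WT in basal cells (all probes: 889 in place of 119; 30 with only the arrays compared, 1 on the negative side), and in unsorted cells leaving out 1 array gave 0 to 2. With 1 probe per gene, 8 genes in place of 16 probes by construction, the counts were 2 (basal and luminal), 4 (basal and stromal) and 4 (luminal and stromal) in WT, and 1 and 5 (basal and luminal, basal and stromal) in SNAI2 null. On the negative side, with fewer arrays, the WT counts were 0, 5 and 4, and on the positive side 3 passed between null basal and luminal cells. Leaving out 1 array gave 5 to 7, 8 to 10 and 5 to 6 in the WT comparisons, 5 to 6, 10 to 12 and 5 to 8 in the null ones, and 0 to 0 in the other null effects. With the replicate block the counts were 6, 10 and 7 in WT and 6, 13 and 6 in SNAI2 null. They were 0 in each null effect. With the block, 149 of all probes passed between SNAI2 null and WT basal cells, in place of 119. For the other comparisons the share of all probes under each setting is not given, so their member counts cannot be set against it. Cdh2 in null basal cells passed with the block against luminal (limma adjusted p = 0.0431) and stromal cells (0.0472). Between genotypes the correlations of same-numbered samples had both signs (-0.23 to 0.29). Among null populations all were positive (0.08 to 0.33), some weaker than in WT. The main fit did not use the numbers. Beyond the fewer probes or arrays that a setting itself leaves, the cause of these moves was not tested. Cdh2, Cdh3 outside basal cells and Cdh11 outside stromal cells lie near background, where levels are upper bounds. Ctnnd1 is dim as well, though detected on all 24 arrays.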
